A study of Saccharomyces cerevisiae with 4 samples.

Results

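In budding yeast, 10 genes of the iron uptake regulon that the transcription factor Aft1 controls were followed in a strain described as free of chromosome III tRNA genes and in wild type. They were taken by systematic name, 10 of the 6706 reading frames in each table, and are AFT1 itself (YGL071W), FRE1 (YLR214W), FET3 (YMR058W), FTR1 (YER145C), FIT1 (YDR534C), FIT2 (YOR382W), FIT3 (YOR383C), ARN1 (YHL040C), SIT1 (YEL065W) and FTH1 (YBR207W). All 10 had enough counts to be tested, and 0 of them passed the test in the tDNA-less strain, where 1.5% of all reading frames tested did. The study asked how the loss of these tRNA genes (tDNAs, which RNA polymerase III transcribes) bears on the transcriptome, and measured RNA from cells in early log phase in the rich medium YPD.

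The tDNA-less strain, JKY690, is MATa with the alleles ade2-1, trp1-1 and ura3-1. Its label lists chromosome III tRNA gene sites numbered t0 to t9, without t2, as deleted, with LEU2 in place of t8 and t9 and HIS3 given with T1 and T7. The wild type, JRY2334, is MATa with ade2-1, trp1-1 and ura3-1 as well, and further carries mutant his3, leu2 and can1 alleles that the tDNA-less label does not list. Both are W-303, and each is a single strain measured in 2 libraries named as biological replicates. Nothing says whether these came from separate colonies or days, so the p-values measure the spread between these libraries. Libraries held 12.94 M and 14.46 M estimated counts in the tDNA-less strain and 12.48 M and 19.76 M in wild type. The 4 reading frames with the most counts took between 30.63% and 45.09% of a library. HIS3, the inserted marker, had 403.5 and 461.6 CPM (counts scaled to library size, with TMM factors) in tDNA-less replicates 1 and 2, against 12.4 and 8.503 CPM in wild-type replicates 1 and 2, so HIS3 was higher in the strain labelled with the insert. LEU2, the second inserted marker, was lower in the tDNA-less libraries, at 59.5 and 54.3 CPM against 110.4 and 135.6 CPM in wild type (log2 fold change -1.12 ± 0.11; edgeR, adjusted p = 0.000915, and 0.0556 without tDNA-less replicate 2). Both strains thus held LEU2 RNA, and these counts cannot show which allele it came from.

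Yeast takes up iron by a pair of high-affinity routes. In the reductive route, cell surface reductases such as Fre1 reduce ferric iron, and the ferroxidase Fet3, a multicopper enzyme, passes it to the permease Ftr1. In the siderophore route, the mannoproteins Fit1, Fit2 and Fit3 hold iron carriers made by other microbes in the cell wall, and Arn1 and Sit1 carry them into the cell. When iron is scarce Aft1 stays in the nucleus and activates these genes through a DNA element with the core CACCC. When iron is sufficient, iron-sulfur clusters bound by glutaredoxins and Fra2 lead to its release from DNA and its export.

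The letters TGCACCC, the form of the element most often given for Aft1, were searched for on both strands in the 500 bases before each start codon in the R64 reference (the S288C sequence that sacCer3 holds, not W-303). They occurred 13 times upstream of 7 of the 10 genes, against 2.32% of 5989 such windows over the genome. The match nearest to each start codon is printed below with 11 bases on either side, since the motif is a sequence that these 7 genes share. The capitals mark the motif, and each sequence reads 5′ to 3′ on the strand that holds it.
FET3 (chrXIII:388560-388588, + strand): atcttcaaaagTGCACCCatttgcaggtg
FTR1 (chrV:461898-461926, - strand): gcgtagatgaaTGCACCCgatttctaagt
FIT1 (chrIV:1505065-1505093, + strand): attcattttttTGCACCCtttcctagaac
FIT2 (chrXV:1059389-1059417, - strand): gctaattatacTGCACCCagttagattcg
FIT3 (chrXV:1061222-1061250, + strand): ccccattttttTGCACCCtttcctagaat
ARN1 (chrVIII:21214-21242, - strand): atttatcaaaaTGCACCCataaaagcagg
SIT1 (chrV:27458-27486, - strand): acgaaccagatTGCACCCtcaaatgtgtt

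FIT2 held 4 matches, more than any other gene of the 10, and FTR1, FIT1 and FIT3 held 2 each. Match centres lay between 128 and 362 bases before the start codon, 7 on the gene's own strand and 6 on the other. The printed sites of FIT1 and FIT3 were identical at 25 of 29 bases, and their further matches lay 102 and 101 bases upstream of these. The FIT3 matches lie between FIT3 and the divergent gene FRE5, so they fall in the window of both. AFT1, FRE1 and FTH1 held no TGCACCC in this window. The shorter core CACCC, which every TGCACCC contains, occurred upstream of 9 of the 10, all but AFT1, and in 33.5% of all windows.

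**Figure D1:**
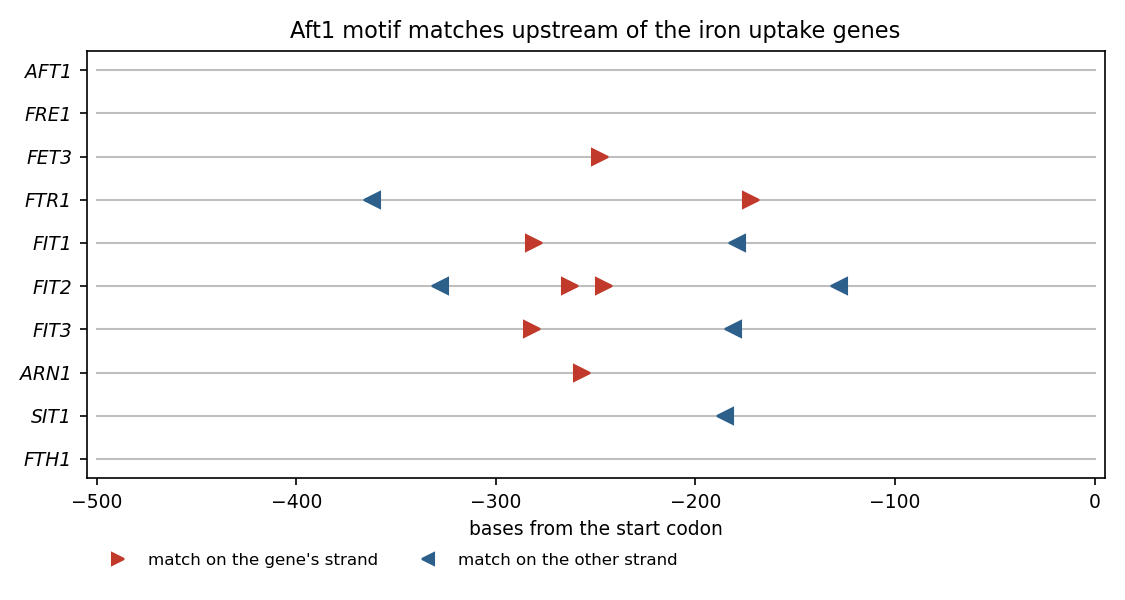
Each line is the 500 bases before the start codon of an iron uptake gene (x axis, bases from the start codon, R64 reference), with triangles at the centres of TGCACCC matches, pointing right on the gene's strand and left on the other. The 13 matches belong to 7 genes and lie between 128 and 362 bases upstream, with 4 of them before FIT2.

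None of the 10 genes is on chromosome III. AFT1 lies at chrVII:372012-374084, FRE1 at chrXII:568567-570627, FET3 at chrXIII:388822-390732, FTR1 at chrV:460526-461740 and FTH1 at chrII:635146-636543. The siderophore genes lie nearer to chromosome ends. FIT1 (chrIV:1503314-1504900) is 27.0 kb from the end, SIT1 (chrV:27657-29543) 27.7 kb and ARN1 (chrVIII:19088-20971) 19.1 kb. FIT2 (chrXV:1059531-1059992) and FIT3 (chrXV:1060441-1061055) are convergent neighbours 449 bases apart, about 31.3 and 30.2 kb from the end. The nearest annotated tRNA gene was 6.5 kb away for FTH1 and 79.7 kb away for FIT3, the lowest and highest of the 10 distances. Each gene has 1 coding exon and overlaps no gene annotated in R64. Each shares 0% of its 31-base words with the other listed reading frames that have an R64 coding sequence (6010 of 6706). By this measure no reads were divided with those frames. The remaining listed frames were not compared, so this cannot show whether reads were divided with them.

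Levels between genes are given as deposited TPM (abundance scaled by length and by library). FET3 and FTR1, the ferroxidase and permease pair, were the most abundant. FET3 had 78.0 and 79.5 TPM in the tDNA-less libraries and 89.6 and 88.7 TPM in wild type, a level above that of 84.9% of all reading frames. FTR1 followed with 65.7 and 64.7 TPM in the tDNA-less strain, against 72.5 and 79.1 TPM in wild type. On log2(TPM + 1) the median log2 fold change over all reading frames tested was itself -0.114. These TPM values therefore serve to order genes, and the strains are compared in scaled counts below. The ratio of FET3 to FTR1 TPM was 1.19 and 1.23 in tDNA-less replicates 1 and 2 and 1.24 and 1.12 in wild-type replicates 1 and 2. The pair thus stayed between 1.12 and 1.24 in all 4 libraries.

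Below the pair came FIT3 with a mean of 35.8 TPM over the 4 libraries, FTH1 with 28.4, AFT1 with 25.3, FRE1 with 14.2, FIT2 with 12.8, SIT1 with 12.5, ARN1 with 8.36 and FIT1 with 1.83 TPM. FIT2 and SIT1 could not be ordered, since their libraries overlapped in both strains. FTH1 overlapped AFT1, and FRE1 overlapped FIT2, in wild type but not in the tDNA-less strain. The remaining neighbours in this order stood apart within each strain. The 3 FIT genes differed widely: the FIT3 to FIT1 ratio was 22.1 and 18.9 in the tDNA-less strain and 22.3 and 16.6 in wild type, and FIT1 lay above only 8.02% of reading frames.

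Levels between libraries are given as TMM-scaled CPM. AFT1, the regulator, had 67.6 and 66.2 CPM in the tDNA-less libraries, against 77.0 and 69.4 CPM in wild type. Both tDNA-less values lay below both wild-type values, by less than the distance between the wild-type libraries. The log2 fold change was -0.13 ± 0.09 (SE), with a 95% interval of -0.32 to 0.07 (edgeR's quasi-likelihood test, adjusted p = 0.62), and was negative in all 13 alternative settings. It was -0.06 without wild-type replicate 1 and -0.20 without wild-type replicate 2. AFT2, the paralog with overlapping targets, had a log2 fold change of -0.16 ± 0.10 and did not pass either (edgeR, adjusted p = 0.583). The ratio of AFT1 to AFT2 TPM averaged 1.10 ± 0.03 in the tDNA-less strain and 1.08 ± 0.09 in wild type (SD, n = 2 each).

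FRE1, a surface reductase for iron and copper that the copper regulator Mac1 also activates, came closest to a call. It had 38.8 and 32.5 CPM in the tDNA-less libraries, against 43.1 and 42.5 CPM in wild type. The strains did not overlap, and the tDNA-less libraries differed from each other by more than the wild-type libraries did. The log2 fold change was -0.27 ± 0.11, a level 1.20-fold lower, with an interval of -0.52 to -0.02 and an unadjusted p of 0.038. It did not pass over all reading frames (edgeR, adjusted p = 0.376), nor in any of 13 alternatives (adjusted p between 0.148 and 0.846). The log2 fold change of FRE1 was -0.40 without tDNA-less replicate 1 and -0.14 without tDNA-less replicate 2. An unadjusted p under 0.05 was reached by 1 of the 10 genes, FRE1, and by 11.8% of all reading frames tested.

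FET3 had 220.9 and 200.1 CPM in the tDNA-less libraries, against 225.3 and 207.1 CPM in wild type. Its libraries overlapped between the strains, and its log2 fold change was -0.04 ± 0.09 (interval -0.23 to 0.15; edgeR, adjusted p = 0.918). FTR1 had 110.5 and 97.7 CPM in the tDNA-less libraries, against 109.2 and 111.0 CPM in wild type. The first tDNA-less library lay between the 2 wild-type libraries. The log2 fold change of FTR1 was -0.08 ± 0.09 (interval -0.28 to 0.11; edgeR, adjusted p = 0.779). For these, the most abundant of the regulon, the intervals reached no further than 1.17-fold lower for FET3 and 1.21-fold lower for FTR1.

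The cell wall mannoproteins were measured less precisely. FIT1 had 3.79 and 3.53 CPM in the tDNA-less libraries, within the 3.16 and 4.56 CPM of wild type, from 43 and 52 estimated counts against 39 and 102. Its log2 fold change was -0.10 ± 0.32, and the interval, -0.82 to 0.62, allowed a level 1.77-fold lower or 1.54-fold higher. FIT2 had 4.67 and 4.88 CPM in the tDNA-less libraries, against 5.19 and 6.44 CPM in wild type. These did not overlap, and the log2 fold change was -0.29 ± 0.26 (interval -0.89 to 0.30; edgeR, adjusted p = 0.727). FIT3 had 25.3 and 20.9 CPM in the tDNA-less libraries, on either side of the 21.97 and 23.76 CPM of wild type. Its log2 fold change was 0.00 ± 0.13 (interval -0.30 to 0.31; edgeR, adjusted p = 0.993). The FIT2 and FIT3 genes are neighbours, and the ratio of FIT3 to FIT2 TPM was 3.45 and 2.81 in the tDNA-less strain and 2.76 and 2.42 in wild type.

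**Figure D2:**
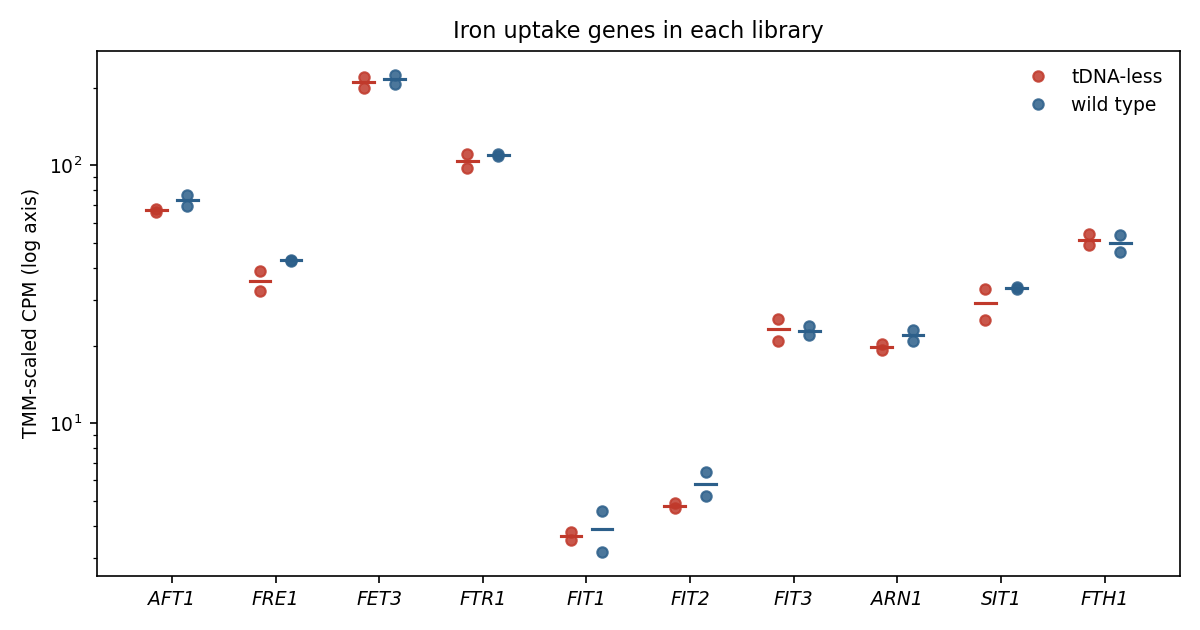
Points are TMM-scaled CPM (log axis) of each iron uptake gene in the 2 tDNA-less libraries (left of each pair) and the 2 wild-type libraries (right), and short lines are the means. AFT1, FRE1, FIT2 and ARN1 have both tDNA-less points below both wild-type points, as do 20.8% of all reading frames tested, and the libraries of the other 6 genes overlap.

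The siderophore transporters likewise did not pass. ARN1, a carrier of ferrichrome, had 20.4 and 19.2 CPM in the tDNA-less libraries, against 20.8 and 23.0 CPM in wild type. The strains did not overlap, by a narrow margin, and the log2 fold change was -0.15 ± 0.13 (interval -0.44 to 0.13; edgeR, adjusted p = 0.691). SIT1, a carrier of ferrioxamine B, had 33.1 and 25.2 CPM in the tDNA-less libraries, against 33.0 and 33.7 CPM in wild type. Replicate 2 of the tDNA-less strain alone stood below the other 3 libraries. The log2 fold change of SIT1 was -0.20 ± 0.14 (interval -0.51 to 0.10; edgeR, adjusted p = 0.608), and without that library it was -0.01. FTH1, which returns iron from the vacuole together with the oxidase Fet5, had 54.0 and 49.2 CPM in the tDNA-less libraries, against 46.1 and 53.7 CPM in wild type. Its libraries overlapped (log2 fold change 0.04 ± 0.11, interval -0.20 to 0.28; edgeR, adjusted p = 0.933), and those of its partner FET5 did too (log2 fold change -0.02 ± 0.10; edgeR, adjusted p = 0.971).

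As a group, 0 of the 10 genes rose and 0 fell by edgeR, where 0.806% of 6205 reading frames rose and 0.693% fell, 1.5% in all. DESeq2 and limma-voom called 0 of the 10 as well, with 0 and 1 at an unadjusted p under 0.05. The fold changes were negative in 8 of 10 genes, against 49.4% of all reading frames, with a median of -0.115 on the log2 scale beside 0.003 over all. Both tDNA-less libraries lay below both wild-type libraries in 4 of the 10, and in 20.8% of all reading frames. In a bulk culture, less RNA per cell and fewer cells with the RNA cannot be told apart. Replicate 2 of the tDNA-less strain had the lowest CPM of the 4 libraries for 7 of the 10 genes, AFT1, FRE1, FET3, FTR1, FIT3, ARN1 and SIT1, and for 23.1% of all reading frames. Without it the median was -0.030, with 6 of 10 negative, and without tDNA-less replicate 1 it was -0.167, with 10 of 10 negative. On the log2(TPM + 1) scale the 10 were also all negative (median -0.234), where the median of all reading frames was -0.114, and relative to that the median was -0.120.

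**Figure D3:**
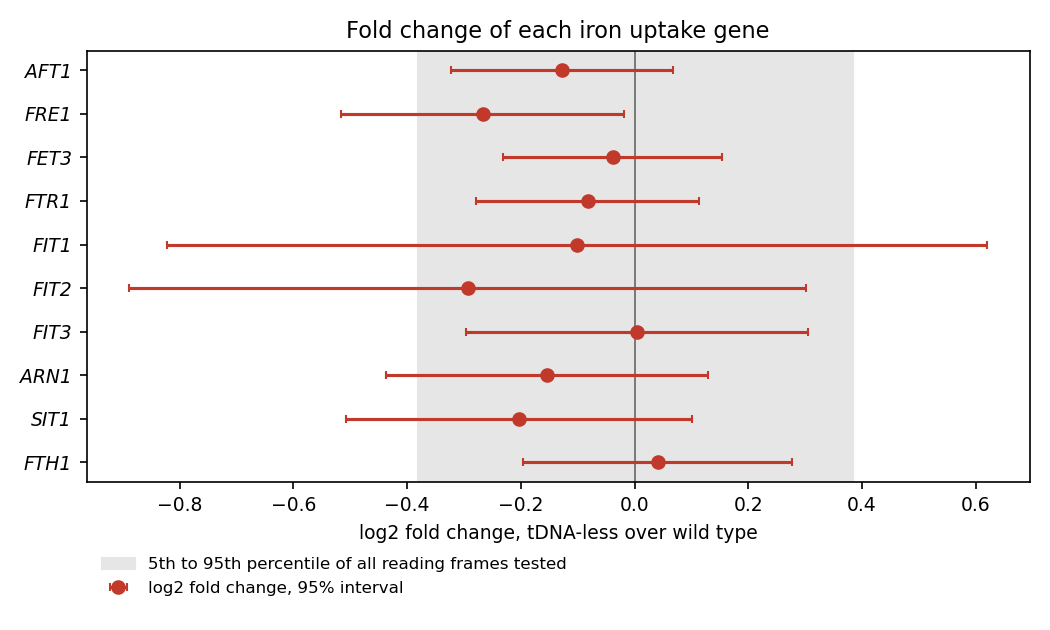
Points are log2 fold changes of tDNA-less over wild type from edgeR (2 libraries per strain) with 95% intervals, and the grey band spans the 5th to 95th percentile of all 6205 reading frames tested, -0.38 to 0.38. All 10 point estimates lie inside the band, from -0.29 for FIT2 to 0.04 for FTH1, and the FRE1 interval alone does not reach 0.

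The width of the intervals followed the level of each gene. The standard error was between 0.09 and 0.14 for the 8 genes with means above 19 CPM, close to the 0.12 at the median of all reading frames, and 0.26 for FIT2 and 0.32 for FIT1. Over the 8 better measured genes the intervals reached down to 1.43-fold lower, for FRE1, and up to 1.24-fold higher, for FIT3. A change of 2-fold in either direction therefore lay outside the interval of every gene, while a fall of 1.5-fold lay inside those of FIT1 and FIT2.

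**Figure D4:**
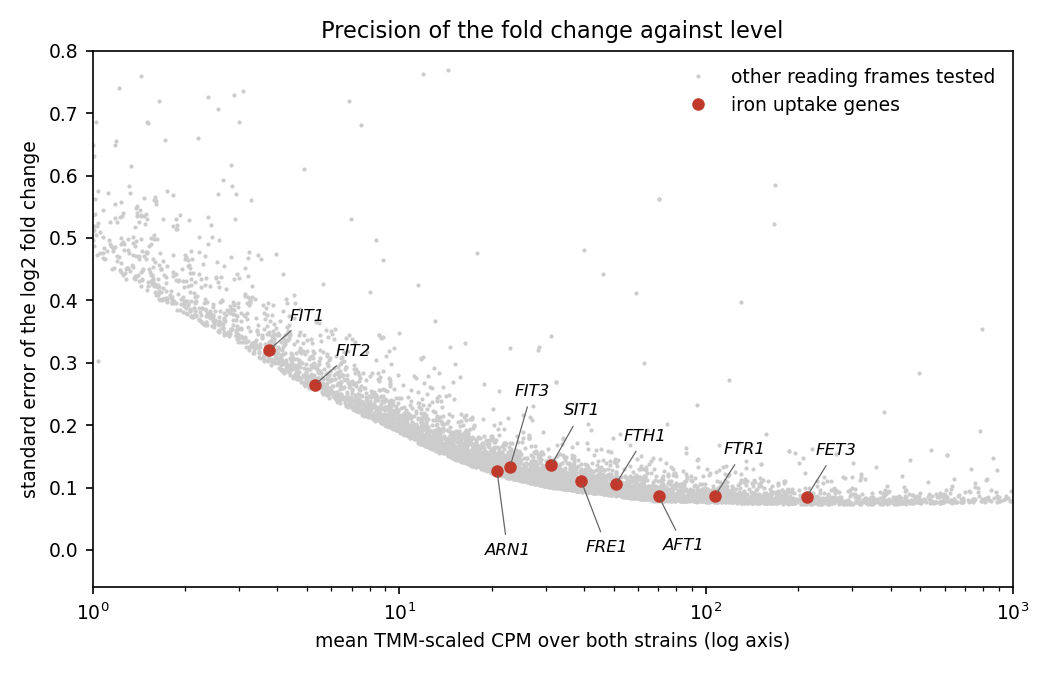
The standard error of the log2 fold change (y axis) is plotted against the mean TMM-scaled CPM over both strains (x axis, log) for the reading frames within the plotted range, with the iron uptake genes in red. FIT1 and FIT2, near 4 and 5 CPM, have errors of 0.32 and 0.26, and the remaining 8 genes lie at 0.14 or below.

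The 3 reading frames outside the iron and copper lists whose course over the 4 libraries was most like the mean of the 9 regulon genes other than AFT1 were YHL017W, PRS4 and TAF11. Their centred log2 CPM differed from that mean by a root mean square of 0.009, 0.009 and 0.012. Of 4979 candidates, 23.6% lay within 0.1, as did 7 of the 9 genes, from which the mean itself was built. That mean was 0.028 and -0.137 in tDNA-less replicates 1 and 2, and -0.008 and 0.118 in wild-type replicates 1 and 2. A flat course would also lie within 0.1 of it, so this cut-off cannot tell a like course from no change.

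Of 24 other genes that Aft1 or its paralog Aft2 is known to regulate, 23 were tested. Of these, 0 rose, 1 fell and 22 did not pass (median log2 fold change -0.011, with 13 negative), where 1.5% of all reading frames tested were called. LSO1, the gene not tested, had 4 and 5 estimated counts in the tDNA-less libraries and 5 and 18 in wild type. The next largest changes were those of FRE3, a reductase for siderophore iron, at -0.46 ± 0.24 (edgeR, adjusted p = 0.503), and TIS11, which encodes the RNA-binding protein Cth2 that lowers messages of iron-using proteins, at -0.41 ± 0.28 (edgeR, adjusted p = 0.626). An unadjusted p under 0.05 was reached by 3 of the 23 and by 11.8% of all reading frames tested. Beside the called gene these were COT1, at -0.36 ± 0.11 (edgeR, adjusted p = 0.186), and VHT1, at 0.40 ± 0.12 (edgeR, adjusted p = 0.191). TGCACCC occurred upstream of 16 of these 24. Over the genome, 127 tested reading frames outside the 10 had it, and 1 of them rose, COS8, a subtelomeric gene named after its value was seen, while 0 fell. That is 0.787% called, beside 1.54% of the tested reading frames without TGCACCC in the window.

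The exception was ISU2, a scaffold on which iron-sulfur clusters are built in mitochondria. ISU2 had 8.11 and 11.1 CPM in the tDNA-less libraries, against 22.9 and 21.5 CPM in wild type. The strains were well apart, and ISU2 fell 2.29-fold (log2 fold change -1.19 ± 0.18; edgeR, adjusted p = 0.0087), a call lost without tDNA-less replicate 1 (edgeR, adjusted p = 0.121). Its paralog ISU1 had 80.0 and 84.0 CPM in the tDNA-less libraries, against 71.6 and 78.5 CPM in wild type, and did not pass (log2 fold change 0.13 ± 0.09; edgeR, adjusted p = 0.62). The ratio of ISU1 to ISU2 TPM was 8.999 and 6.94 in the tDNA-less libraries and 2.86 and 3.36 in wild type. ISU1 has TGCACCC in its upstream window and ISU2 does not.

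Around the control of Aft1 and Aft2, 9 genes were listed, with AFT2 itself, CTH1 and YAP5 among them. None of the 9 was called by edgeR, and 0 had an unadjusted p under 0.05. FRA2, the most abundant of them, had a log2 fold change of 0.09 ± 0.12, and PSE1, the importin that brings Aft1 into the nucleus, one of -0.15 ± 0.07 (edgeR, adjusted p = 0.486). Among 7 further genes of iron handling, low-affinity uptake and storage included, 0 were called by edgeR. An unadjusted p under 0.05 was reached by 1 of these, GEF1, a chloride channel needed to load copper into Fet3 (0.26 ± 0.11; edgeR, adjusted p = 0.387). CCC1, which stores iron in the vacuole, was at -0.01 ± 0.11. Among 9 copper genes 0 were called by edgeR and 0 had an unadjusted p under 0.05. SOD1, the most abundant, was at 0.10 ± 0.07, and MAC1, which shares FRE1 as a target, at -0.23 ± 0.14 (edgeR, adjusted p = 0.58). Over all reading frames tested 1.5% were called and 11.8% had an unadjusted p under 0.05. In lists this short, such counts cannot be read as a result about these genes.

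Genes that build or use iron cofactors held further calls. Of 22 genes of iron-sulfur cluster assembly, 0 rose, 1 fell and 21 did not pass. DRE2, an electron carrier of the cytosolic assembly route, fell 1.43-fold, with 114.3 and 104.5 CPM in the tDNA-less libraries against 167.9 and 146.3 CPM in wild type (log2 fold change -0.52 ± 0.09; edgeR, adjusted p = 0.0264). That call was lost without either tDNA-less library and without wild-type replicate 1 (edgeR, adjusted p = 0.242, 0.406 and 0.0891), where the log2 fold changes were -0.59, -0.46 and -0.43, and on both TPM scales (limma, adjusted p = 0.0899 and 0.0988). IBA57, a mitochondrial assembly factor, had a larger log2 fold change, 0.57 ± 0.14, and did not pass (edgeR, adjusted p = 0.124). Of 20 iron-using proteins, 3 rose, 3 fell and 14 did not pass, where 1.5% of all 6205 reading frames tested were called. Like the other lists, this one was written with earlier results of these data known. Its share of calls therefore cannot be read as a result about iron-using proteins. The falls were LEU1, ILV3 and MET5, cluster or siroheme enzymes of leucine, branched-chain and sulfur amino acid synthesis, with log2 fold changes of -2.92 ± 0.11, -0.84 ± 0.07 and -0.98 ± 0.09. The rises were ACO1, the aconitase of the TCA cycle, and the cytochromes CYC1 and CYT1, with log2 fold changes of 0.68 ± 0.09, 0.44 ± 0.09 and 0.56 ± 0.08. All 3 of these calls were lost without either tDNA-less library (edgeR, adjusted p up to 0.162, 0.501 and 0.191), that of CYC1 also without wild-type replicate 1 (0.139), and all 3 on the log2(TPM + 1) scale (limma, adjusted p = 0.302 for ACO1, 0.442 for CYC1 and 0.351 for CYT1). Without tDNA-less replicates 1 and 2 in turn the log2 fold changes were 0.77 and 0.58 for ACO1, 0.50 and 0.38 for CYC1, and 0.60 and 0.52 for CYT1, in fits that leave 1 library for that strain. SDH2 and RIP1, iron-sulfur subunits of the respiratory chain, had log2 fold changes of 0.40 ± 0.09 and 0.38 ± 0.08 and did not pass (edgeR, adjusted p = 0.0748 and 0.0709).

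**Figure D5:**
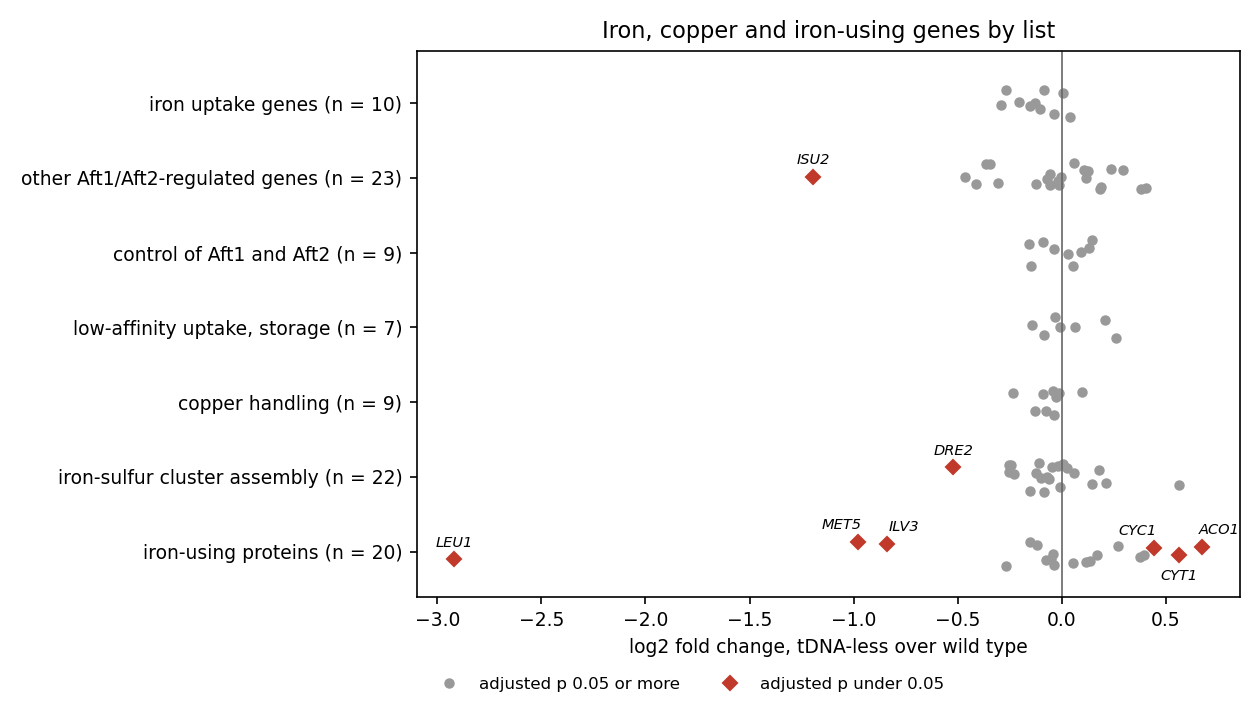
Each point is the log2 fold change of a tested gene (x axis, tDNA-less over wild type, edgeR), by list from top to bottom, with vertical scatter for visibility and red diamonds for an adjusted p under 0.05. The 10 iron uptake genes lie between -0.29 and 0.04 with 0 called, beside 1 call of 23 in the further Aft1 and Aft2 targets (ISU2), 1 of 22 in cluster assembly (DRE2) and 6 of 20 in iron-using proteins. Over all reading frames tested 1.5% were called, and the lists were written with earlier results of these data known.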

How the data were processed

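Total RNA was measured in 4 libraries made with a directional kit, per the labels' protocols. Per the file headers, the deposited tables hold kallisto's estimated counts and TPM per reading frame; the submitters' processing notes name kallisto, sleuth and sacCer3. Which kallisto version, index and strand setting were used is not given in the sources here. Listed lengths are all multiples of 3, so they are coding lengths. RNA outside the listed frames, tRNA included, is not analysed here.

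Estimated counts were rounded, filtered with edgeR's filterByExpr (minimum 10 counts), scaled by TMM and tested by quasi-likelihood in edgeR 4.0.16 under R 4.3.3, with Benjamini-Hochberg adjustment over 6205 reading frames and a call at an adjusted p under 0.05. Standard errors are the absolute log2 fold change over the square root of F, and 95% intervals use the moderated degrees of freedom. Permuting 2 against 2 libraries cannot give a two-sided exact p under 0.333. Same-strain libraries differed well beyond counting noise (chi-square per degree of freedom 45.1 in tDNA-less, 61.4 in wild type). That statistic includes the 4 most abundant frames, whose share differed between replicates (39.56% and 30.63% in wild type). In the fit, the common coefficient of variation between same-strain libraries was 9.82%. Alternatives were DESeq2 1.42.0 and its size factors, limma 3.58.1 (voom, and log2 of TPM plus 1 or 0.1), other filters (none, or a mean of 50 counts), omission of the 4 most abundant frames, a replicate block and each library left out. The test was checked on simulated data.

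Names, positions and sequences are from the R64 RefSeq assembly, which holds 6022 of the names, 6010 with a coding sequence. The 10 genes and all lists were chosen with earlier results of these data known. Named genes are the 10, each context list's called genes and examples of its largest changes and highest levels, both markers, and the 3 frames most like the regulon's mean course. COS8, LSO1, COT1 and VHT1 were named after their values were seen.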

Additional observations from a re-analysis of the deposited data

How the results depend on the processing

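No alternative called any of the 10 iron uptake genes, and the median of their log2 fold changes was negative in each of the 13, from -0.242 on log2(TPM + 0.1) to -0.030 without tDNA-less replicate 2. AFT1, FRE1, FIT2, ARN1 and SIT1 were negative throughout, and with a library left out ranged from -0.203 to -0.0608, -0.401 to -0.141, -0.437 to -0.118, -0.224 to -0.0776 and -0.413 to -0.0113 in that order. The signs of 5 genes near 0 reversed in places, with no call, and the cause was not tested: FIT3 gave -0.0192 in limma-voom, -0.101 on log2(TPM + 1), -0.103 on log2(TPM + 0.1) and -0.00392 with the replicate block, and FTH1 -0.0829 and -0.0853 on the same TPM scales, where the median of all reading frames was itself -0.114 and -0.122. With libraries left out, FIT3 ranged from -0.139 to 0.142, FTH1 from -0.0668 to 0.159, FET3 from -0.115 to 0.0311, FTR1 from -0.177 to 0.00491 and FIT1 from -0.328 to 0.207. Over all reading frames 93 were called, 52 on log2(TPM + 1), 39 on log2(TPM + 0.1), 282 with the replicate block and between 21 and 91 with a library left out. The replicate numbers are not said to mark a shared day; deviations of same-numbered libraries correlated at 0.254 across genes, from 2 pairs. Low counts limit FIT1 and FIT2.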
